A study of Mus musculus with 11 samples.

Results

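The genes described here encode the contractile apparatus of smooth muscle, the muscle of airways and blood vessels. The list held 10 genes by name: Acta2, Tagln, Des, Myh11, Cnn1, Actg2, Myl9, Tpm2, Lmod1 and Mylk. Probe set names were matched to mouse symbols through the RefSeq table. Of the 10 genes, 9 had a probe set, 1 each, out of 14351 genes with one, and Myl9, the regulatory light chain of smooth muscle myosin, matched none. A gene entered the tests if it reached a log2 value of 5 on 2 or more of the 11 arrays, which kept 7 of the 10 genes and 8085 genes in all. Actg2 and Lmod1 lay below 5 on every array and were not tested.

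The arrays measured lung RNA of Balb/c mice in 4 groups. Total RNA came from wild-type lungs (3 arrays) and from lungs of 4ebp1-/-/4ebp2-/- mice (3 arrays). The targeted genes, Eif4ebp1 and Eif4ebp2, encode repressor proteins of the cap-binding translation factor eIF4E. Polysomal RNA, pooled from gradient fractions 7 to 10, where messages carry 3 or more ribosomes, came from wild-type (2 arrays) and knockout (3 arrays) lungs. All mice ate a purified diet from 5 weeks of age, and their age at sampling is not given in the labels. The wild-type mice were bought from a breeder and the knockout line was a gift, so genotype and source of the mice cannot be told apart. Whether arrays of a group came from different mice is not stated, so p-values reflect only the spread among these arrays, part of which may be technical. Eif4ebp2 stood at 4.50 to 5.49 log2 on the wild-type and 2.61 to 3.26 on the knockout total arrays. The genotypes did not overlap for it in either RNA kind. Eif4ebp1, the other targeted gene, still read 7.92 to 7.94 log2 on the knockout total arrays against 8.20 to 8.54 in wild type. Which exons were deleted is not given, so its probe set may lie outside the deletion. Of the lung epithelial markers, Scgb1a1 (16.26 to 16.53 log2) and Ager (14.91 to 15.91) were bright on every array. Sftpc read 13.89 on wild-type total replicate 3 and 15.59 to 16.17 on the others.

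Smooth muscle contracts when calcium, bound to calmodulin, turns on myosin light chain kinase. The kinase phosphorylates the regulatory light chain, which lets the myosin heavy chain pull on filaments of smooth muscle actin. Tropomyosin and calponin sit along the actin filament, transgelin and leiomodin shape it, and desmin ties the filaments into a network. In the lung these proteins mark the muscle around bronchi and vessels and, to a lesser degree, myofibroblasts. Many of their genes are known targets of serum response factor, SRF, which binds a DNA element called the CArG box. The polysome gradient addresses whether such messages differ between genotypes in amount, in the RNA carried by several ribosomes, or in both.

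The start regions of 3 genes that rose together in knockout total RNA are shown because SRF is the shared regulator known for this group. They are the 250 bases before the RefSeq start, from RefSeq's build GRCm38.p6, given 5′ to 3′ on the gene's strand. Capitals mark a CArG box, searched as a 10-base pattern with at most 1 substitution among its 6 central bases. The pattern is its own reverse complement, so a match on one strand is a match on the other.
Acta2, chr19:34255374-34255623, minus strand: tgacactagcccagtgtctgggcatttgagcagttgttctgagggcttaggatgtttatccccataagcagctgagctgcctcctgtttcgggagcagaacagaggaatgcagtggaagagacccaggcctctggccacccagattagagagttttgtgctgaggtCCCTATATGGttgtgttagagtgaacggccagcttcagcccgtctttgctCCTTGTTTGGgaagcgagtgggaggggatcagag
Des, chr1:75360042-75360291, plus strand: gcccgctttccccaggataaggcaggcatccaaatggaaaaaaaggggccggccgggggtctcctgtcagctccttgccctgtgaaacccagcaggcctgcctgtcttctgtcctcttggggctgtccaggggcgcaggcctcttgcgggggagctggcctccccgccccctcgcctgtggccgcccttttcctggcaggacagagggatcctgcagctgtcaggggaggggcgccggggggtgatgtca
Mylk, chr16:34784700-34784949, plus strand: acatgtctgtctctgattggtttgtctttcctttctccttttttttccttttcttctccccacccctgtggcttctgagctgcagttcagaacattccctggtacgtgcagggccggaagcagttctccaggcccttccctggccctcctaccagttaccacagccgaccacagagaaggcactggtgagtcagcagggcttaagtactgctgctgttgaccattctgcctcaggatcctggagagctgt
The Acta2 window held 2 matches, each with 1 substitution, beginning 84 and 34 bases before the start. The Des and Mylk windows held none. Mylk also encodes a longer nonmuscle form of its kinase, and which form this start belongs to is not known here. Of the 7 listed genes in the promoter table, Myl9 was the other with a match: CCTAATAAGG, with no substitution, began 161 bases before its start. Tagln, Myh11 and Actg2 have no entry in the table. Among all 32851 windows of the same length, 8.59% held a match with at most 1 substitution and 1.47% an exact one. A match describes letters in the window and does not show binding.

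In total RNA, 4 of the 7 tested smooth muscle genes rose in knockout lung and none fell. They were the actin gene Acta2, the actin-bundling gene Tagln, the filament gene Des and the kinase gene Mylk, with rises of 1.48-fold to 2.51-fold. Over all 8085 tested genes, 23.2% were called in this comparison, 17.2% higher and 5.97% lower. Of the calls over all genes 74.3% were higher, against 60.6% on quantile-normalized values and 55.2% on values with equal array medians, and the same 4 smooth muscle genes were called under both. The other 3 tested smooth muscle genes, Myh11, Cnn1 and Tpm2, had differences above 0 that did not pass. The median difference of the 7 was 0.67 log2, against 0.09 over all tested genes. These calls come from limma fitted across all probe sets, with Benjamini-Hochberg adjusted p under 0.05. In bulk lung RNA, a different number of smooth muscle cells and a different amount of RNA per cell cannot be told apart.

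**Figure D1:**
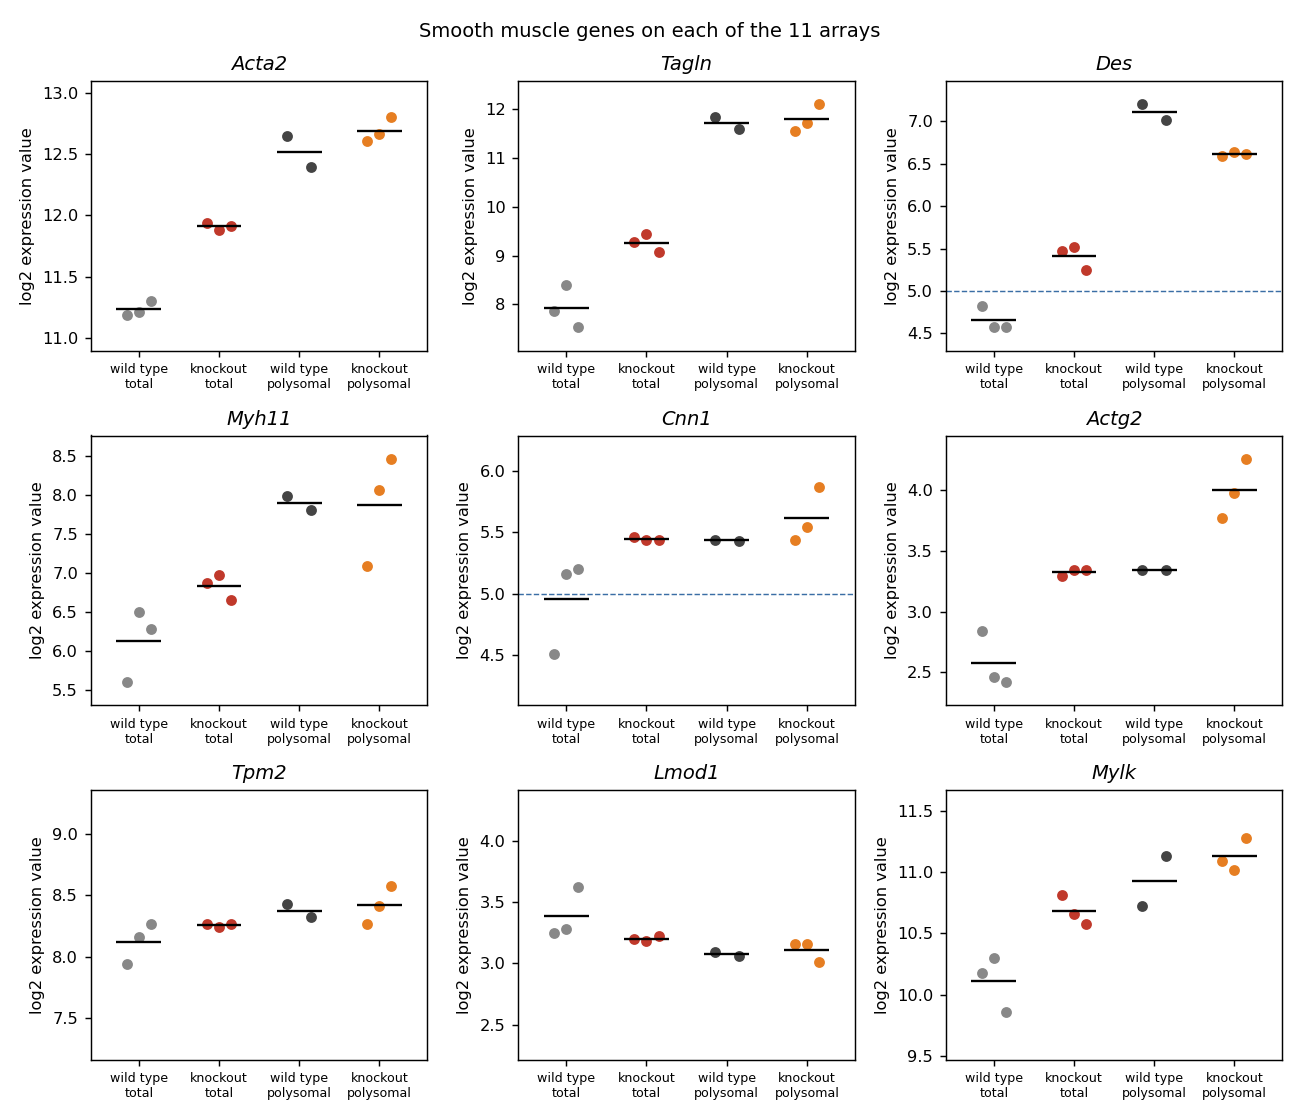
Log2 expression value (vertical axis, scaled separately for each gene) of the 9 smooth muscle genes with a probe set on each array, by group. Points are arrays, horizontal bars are group means, and the dashed line marks the filter value of 5 where it falls in range. Acta2, Tagln, Des and Mylk lie higher on all 3 knockout total arrays than on any wild-type total array, and Actg2 and Lmod1 lie below 5 on every array.

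Acta2, smooth muscle alpha actin and the main thin filament protein of vessel walls, stood at 11.19, 11.21 and 11.30 log2 on the 3 wild-type total arrays. On the 3 knockout total arrays it stood at 11.94, 11.88 and 11.91. The groups did not overlap, and the gap between them was far wider than the spread within either. The rise was 0.67 log2 units (standard error, SE, 0.09, 95% interval 0.47 to 0.88, n = 3 and 3, limma adjusted p = 0.0018), or 1.59-fold. Acta2 was among the brighter probe sets, above 96.2% of all by its mean. Actin genes resemble each other closely in coding sequence, and which of them each actin probe set also detects is not known here.

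Tagln, transgelin or SM22, an actin-binding protein of early smooth muscle, had the widest change of the list. It stood at 7.87, 8.40 and 7.53 log2 on the wild-type total arrays and at 9.28, 9.43 and 9.08 on the knockout total arrays. Every knockout array was above every wild-type array.
The rise was 1.33 log2 units (SE 0.22, 95% interval 0.84 to 1.82, limma adjusted p = 0.0036), or 2.51-fold, and exceeded that of 98.2% of the genes tested.

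Des, desmin, the intermediate filament protein of muscle, was dim in total RNA. Its values were 4.82, 4.57 and 4.57 log2 on the wild-type arrays, all below the filter value of 5, and 5.47, 5.52 and 5.25 on the knockout arrays. The groups did not overlap. Des rose by 0.76 log2 units (SE 0.11, 95% interval 0.52 to 0.996, limma adjusted p = 0.0019), or 1.69-fold. With wild-type values below the filter, the size of this rise is not well measured. Desmin is also a protein of heart muscle, whose markers are given below.

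Mylk encodes myosin light chain kinase, the enzyme that starts contraction, and also a longer nonmuscle form of the kinase. It stood at 10.18, 10.30 and 9.86 log2 on the wild-type total arrays and at 10.81, 10.66 and 10.58 on the knockout total arrays. The groups did not overlap. Mylk rose by 0.57 log2 units (SE 0.15, 95% interval 0.24 to 0.90, limma adjusted p = 0.022), or 1.48-fold. The call was lost without wild-type total replicate 1, knockout total replicate 1 or knockout total replicate 2, with a highest adjusted p of 0.076 over the arrays left out.

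Myh11, the smooth muscle myosin heavy chain and the motor of the filament, ran the same way with a wider spread. It stood at 5.61, 6.50 and 6.28 log2 on the wild-type total arrays and at 6.87, 6.97 and 6.66 on the knockout arrays. The groups did not overlap, but wild-type replicate 1 lay well below its fellows. The difference was 0.70 log2 units (SE 0.33, 95% interval -0.03 to 1.44, limma adjusted p = 0.15), which did not pass.

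Cnn1, calponin, a brake on actin-activated myosin, stood at 4.51, 5.16 and 5.20 log2 on the wild-type total arrays and at 5.46, 5.44 and 5.44 on the knockout total arrays. The groups did not overlap, but the difference of 0.49 (SE 0.18, 95% interval 0.09 to 0.89, limma adjusted p = 0.078) did not pass. Without wild-type total replicate 3 it did. Tpm2, the beta tropomyosin that covers the actin groove, stood at 7.94, 8.16 and 8.27 log2 on the wild-type and at 8.27, 8.24 and 8.27 on the knockout total arrays. These groups overlapped, and the difference of 0.14 (SE 0.11, 95% interval -0.11 to 0.38, limma adjusted p = 0.40) did not pass. Cnn1 and Tpm2 each had 1 value repeated exactly on 3 arrays, 5.44 and 8.27 log2, as 14.4% of the genes tested had a value shared by arrays.

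The 2 genes below the filter differed from each other. Actg2, the gamma actin of gut and other smooth muscle, stood at 2.84, 2.46 and 2.42 log2 on the wild-type total arrays and at 3.29, 3.34 and 3.34 on the knockout total arrays. Lmod1, leiomodin, which starts actin filaments in smooth muscle, stood at 3.25, 3.28 and 3.62 log2 against 3.20, 3.18 and 3.22. Probe sets below the filter had a median of 2.43 to 2.49 log2 on the wild-type and 2.34 to 2.39 on the knockout total arrays. At these levels the sizes of differences are not well measured. Of the 9 genes with a probe set, 7 had every knockout total array above every wild-type total array and 1, Lmod1, the reverse. Over all tested genes, 28% had all knockout total arrays higher and 14% all lower. Such shares, here and in the like counts below, cover only genes that passed the filter, which Actg2 and Lmod1 did not.

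The labels give each array a set letter, A, B or C, that they do not explain. Within the total arrays of set A (2 wild type, 1 knockout) and of set B (1 wild type, 2 knockout), the 4 genes called differed in the same direction. Acta2 differed by 0.73 log2 units in set A and 0.59 in set B, and Tagln by 1.14 and 1.72. Des differed by 0.78 and 0.81, and Mylk by 0.57 and 0.76. The wild-type array of set B was total replicate 3, which had the low Sftpc value. It also had the lowest wild-type total values of Tagln (7.53 log2) and Mylk (9.86). These within-set values have no test.

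In polysomal RNA, 1 of the 7 tested genes passed between genotypes, and it fell. None rose, 6 did not pass, and the median was 0.08 log2 against -0.01 over all tested genes. Over all genes 15.1% were called, 8.36% higher and 6.77% lower. The gene that fell was Des. It stood at 7.20 and 7.02 log2 on the 2 wild-type polysomal arrays and at 6.59, 6.64 and 6.62 on the 3 knockout polysomal arrays. The groups did not overlap, and the knockout arrays lay close together. Des fell by 0.49 log2 units (SE 0.12, 95% interval -0.76 to -0.23, n = 2 and 3, limma adjusted p = 0.023), or 1.41-fold. Leaving out wild-type polysomal replicate 1, or any 1 of the 3 knockout polysomal arrays, ended the call (highest limma adjusted p = 0.13). A fit with the set letters as a replicate block ended it too (limma adjusted p = 0.078). That block sets aside knockout polysomal replicate 1, the only polysomal array of set A, so it largely repeats that omission. Within set B and within set C, with 1 array a side and no test, Des had knockout minus wild-type values of -0.56 and -0.40 log2 units.

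Acta2 stood at 12.65 and 12.39 log2 on the wild-type polysomal arrays and at 12.61, 12.66 and 12.80 on the knockout arrays. The groups overlapped. The difference was 0.17 log2 units (SE 0.10, 95% interval -0.06 to 0.40, limma adjusted p = 0.32). Tagln, at 11.84 and 11.58 against 11.55, 11.72 and 12.09 log2, overlapped too. Its difference was 0.08 (SE 0.24, 95% interval -0.47 to 0.63, limma adjusted p = 0.88), so a rise of the size seen in total RNA lies outside this interval. For Acta2 the total RNA value of 0.67 lies outside the polysomal interval as well.

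Myh11 was the most scattered gene in knockout polysomal RNA. It stood at 7.98 and 7.81 log2 on the wild-type polysomal arrays and at 7.09, 8.06 and 8.46 on the knockout arrays, replicate 1 being the low one. The difference was -0.03 (SE 0.37, 95% interval -0.85 to 0.79, limma adjusted p = 0.97), and it was 0.36 without knockout polysomal replicate 1. Mylk stood at 10.72 and 11.13 log2 against 11.09, 11.02 and 11.28, with overlap and a difference of 0.21 (SE 0.17, limma adjusted p = 0.45). Cnn1, at 5.44 and 5.43 log2 against 5.44, 5.54 and 5.87, differed by 0.18 (SE 0.20, limma adjusted p = 0.59). Tpm2, at 8.43 and 8.32 log2 against 8.27, 8.41 and 8.58, differed by 0.04 (SE 0.12, limma adjusted p = 0.86). None of the 3 passed, and the groups of Cnn1 were separate by less than the 2 decimals shown. Knockout polysomal replicate 3 held the highest value for Acta2, Tagln, Myh11, Cnn1, Tpm2 and Mylk. It also held the highest summed level of heart muscle markers, given below.

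Actg2 was the 1 dim gene with separate groups in polysomal RNA and higher values in knockout. It was listed at 3.34 log2 on both wild-type polysomal arrays, the same value as on knockout total replicates 2 and 3, and at 3.77, 3.98 and 4.26 on the knockout polysomal arrays. Lmod1 stood at 3.09 and 3.06 log2 against 3.16, 3.16 and 3.01, with overlap. Of the 9 genes with a probe set, 2, Actg2 and Cnn1, had all knockout polysomal arrays above all wild-type ones, 1, Des, had all below, and 6 overlapped. Over all tested genes 23.8% had all higher and 25.2% all lower in this comparison of 2 against 3 arrays.

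**Figure D2:**
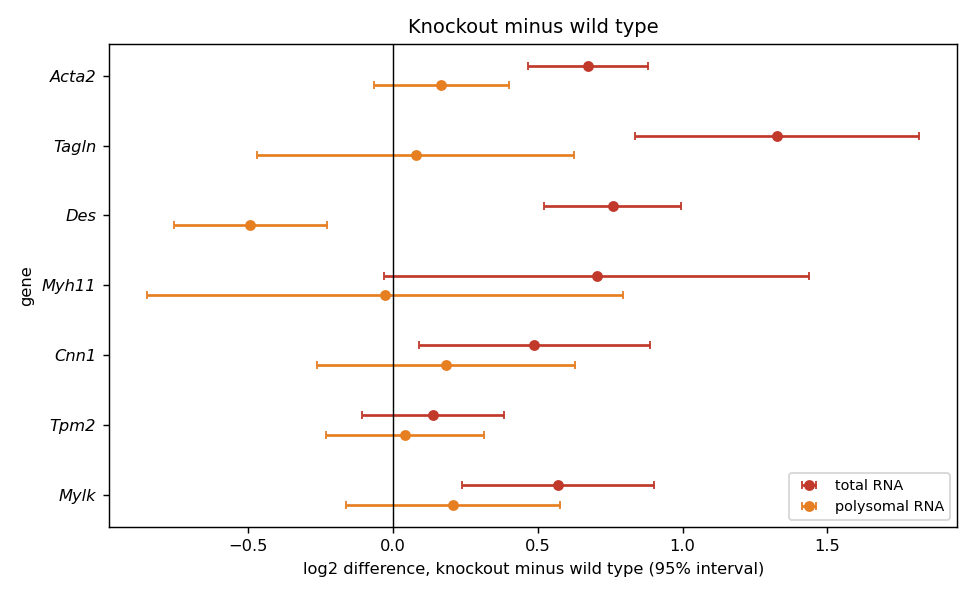
Knockout minus wild type in log2 units (horizontal axis) for the 7 tested smooth muscle genes, in total and in polysomal RNA. Points are limma estimates and bars are 95% intervals. In total RNA the 4 genes called lie between 0.57 and 1.33, and in polysomal RNA the interval of Des alone lies off 0, below it.

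The interaction, the knockout difference in polysomal RNA minus that in total RNA, tested whether the genotypes differed by unequal amounts in the 2 RNA kinds. It was below 0 for all 7 tested genes, and 3 of them passed: Acta2, Tagln and Des. Over all genes 22.3% were called, 14.2% lower and 8.06% higher, with a median of -0.13 against -0.51 for the 7. Des had -1.25 log2 units (SE 0.16, 95% interval -1.61 to -0.90, limma adjusted p = 0.0028). This call was made without each array in turn and under every other setting that could be fitted, with a highest adjusted p of 0.020. It rests in part on wild-type total values of 4.57 to 4.82 log2, below the filter value of 5, so its size is not well measured. Tagln had -1.25 (SE 0.33, 95% interval -1.98 to -0.51, limma adjusted p = 0.026) and Acta2 -0.51 (SE 0.14, 95% interval -0.82 to -0.20, limma adjusted p = 0.030). Each of these 2 calls depended on 7 of the 11 arrays, any 1 of which ended it when omitted, with a highest adjusted p of 0.085 for Tagln and 0.099 for Acta2.  Myh11 (-0.73, SE 0.49), Mylk (-0.36, SE 0.22), Cnn1 (-0.31, SE 0.27) and Tpm2 (-0.10, SE 0.16) did not pass.

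Polysomal RNA held more of most of these messages than total RNA in both genotypes. The 2 RNA kinds were normalized with a common level, so a value states a message's share within each RNA kind, not the number of ribosomes on it. In wild type, 5 of the 7 tested genes were higher in polysomal RNA and 2, Cnn1 and Tpm2, did not pass. Of all genes 72.4% were called, 44.5% higher and 27.9% lower. Their median was 1.28 log2 against 0.22 over all genes. Tagln led with 3.77 log2 units (SE 0.24, limma adjusted p = 6.0e-07), or 13.7-fold, more than 97.9% of genes. Des followed with 2.46 (SE 0.12, adjusted p = 1.1e-07), Myh11 with 1.76 (SE 0.37, adjusted p = 0.0015), Acta2 with 1.28 (SE 0.10, adjusted p = 2.4e-06) and Mylk with 0.81 (SE 0.17, adjusted p = 0.0014), all from limma. The wild-type total values of Des lay below the filter value of 5, so the size of its difference is not well measured. Cnn1 had 0.48 (SE 0.20, limma adjusted p = 0.054) and Tpm2 0.25 (SE 0.12, adjusted p = 0.087). All 9 genes with a probe set had separate groups in wild type, 8 with polysomal RNA higher and Lmod1 lower. Over all tested genes these shares were 48% and 34.6%.

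In knockout the same 5 genes were higher in polysomal RNA, with smaller values. Of all genes 65.2% were called, 39.5% higher and 25.7% lower. Tagln had 2.53 log2 units (SE 0.22, limma adjusted p = 5.9e-06), or 5.76-fold, and Des 1.21 (SE 0.11, adjusted p = 6.2e-06). Myh11 had 1.03 (SE 0.33, limma adjusted p = 0.019), Acta2 0.78 (SE 0.09, adjusted p = 5.0e-05) and Mylk 0.45 (SE 0.15, adjusted p = 0.023). The calls for Myh11 and Mylk were each lost without any 1 of 3 arrays, with highest adjusted p of 0.074 and 0.084. On quantile-normalized values the call for Mylk was lost as well (0.26, limma adjusted p = 0.11), and Acta2 went from 0.78 to 0.41 and still passed. Cnn1, at 0.17 (SE 0.18), and Tpm2, at 0.16 (SE 0.11), did not pass. The median of the 7 was 0.78 against 0.13 over all genes. Of the 9 genes with a probe set, 6 had all polysomal arrays of the knockout above all its total arrays, 1, Lmod1, had all below, and Cnn1 and Tpm2 overlapped. Over all tested genes 44% had all higher and 32.1% all lower. The order of the genes by this difference was the same in both genotypes, from Tagln through Des, Myh11, Acta2, Mylk and Cnn1 to Tpm2, and differences between genes were not tested.

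**Figure D3:**
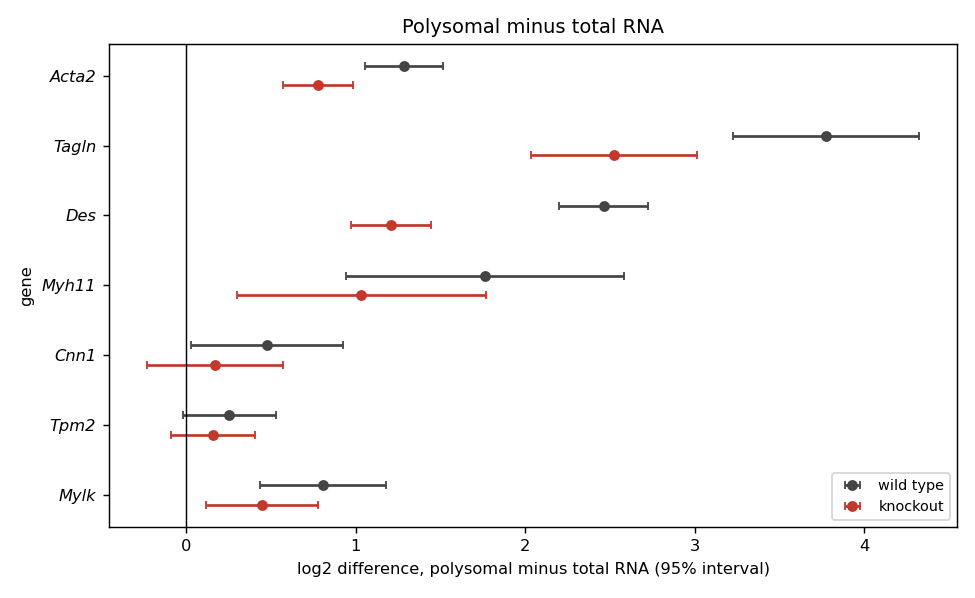
Polysomal minus total RNA in log2 units (horizontal axis) for the 7 tested smooth muscle genes in wild type and in knockout. Points are limma estimates and bars are 95% intervals. Every gene lies nearer 0 in knockout than in wild type, for example Tagln at 2.53 against 3.77 and Des at 1.21 against 2.46.

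Other genes of the contractile programme were taken from lists. Of 16 regulators of the smooth muscle programme 8 were tested, and myocardin, Myocd, the coactivator of SRF, was below the filter. Srf itself stood at 7.56 log2 on both wild-type polysomal arrays and at 7.15, 6.76 and 7.01 on the knockout polysomal arrays, without overlap. It fell there by 0.58 (SE 0.12, limma adjusted p = 0.013), with -0.01 between genotypes in total RNA. Notch3, a receptor of mural cells around vessels, rose by 0.48 in total RNA (SE 0.14) and fell by 0.61 in polysomal RNA (SE 0.15). In total RNA 3 of the 8 regulators rose, Notch3, the growth factor Tgfb1 (1.08, SE 0.29) and the transcription factor Gata6 (0.54, SE 0.16), and 1 fell, the Notch ligand Jag1 (-0.45, SE 0.11). Srf and Notch3 were the 2 that fell in polysomal RNA and none rose. They were also the 2 called lower in the interaction. Of all tested genes 17.2% were called higher and 5.97% lower in total RNA. The shares called lower were 6.77% in polysomal RNA and 14.2% in the interaction.

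Of 36 other thin filament, dense body and adhesion genes 21 were tested. In total RNA 5 rose, 1 fell and 15 did not pass, with a median of 0.18. Of all tested genes 17.2% were called higher and 5.97% lower there. Parva (0.76, SE 0.12), an adaptor of integrin adhesions, Csrp1 (0.64, SE 0.10), a cytoskeletal LIM protein, and Lpp (0.35, SE 0.10), an adhesion protein of smooth muscle, rose, and the integrin gene Itgb1 fell by 0.59 (SE 0.18). In polysomal RNA 2 rose, Hspb6 (1.21, SE 0.31), a small heat shock protein of muscle, and Lpp (0.48, SE 0.11). Hspb1, a relative of Hspb6, fell by 1.14 (SE 0.28). Hspb6 read 2.71 log2 on both wild-type and 3.52 to 4.42 on the knockout polysomal arrays, all below the filter value of 5. The size of its rise is therefore not well measured. The interaction was lower for 4 of them, Zyx (-0.82, SE 0.21), Parva (-0.75, SE 0.18), Tln1 (-0.70, SE 0.17) and Csrp1 (-0.53, SE 0.16), and higher for none. Shares over all tested genes were 8.36% higher and 6.77% lower in polysomal RNA, and 8.06% higher and 14.2% lower in the interaction.

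**Figure D4:**
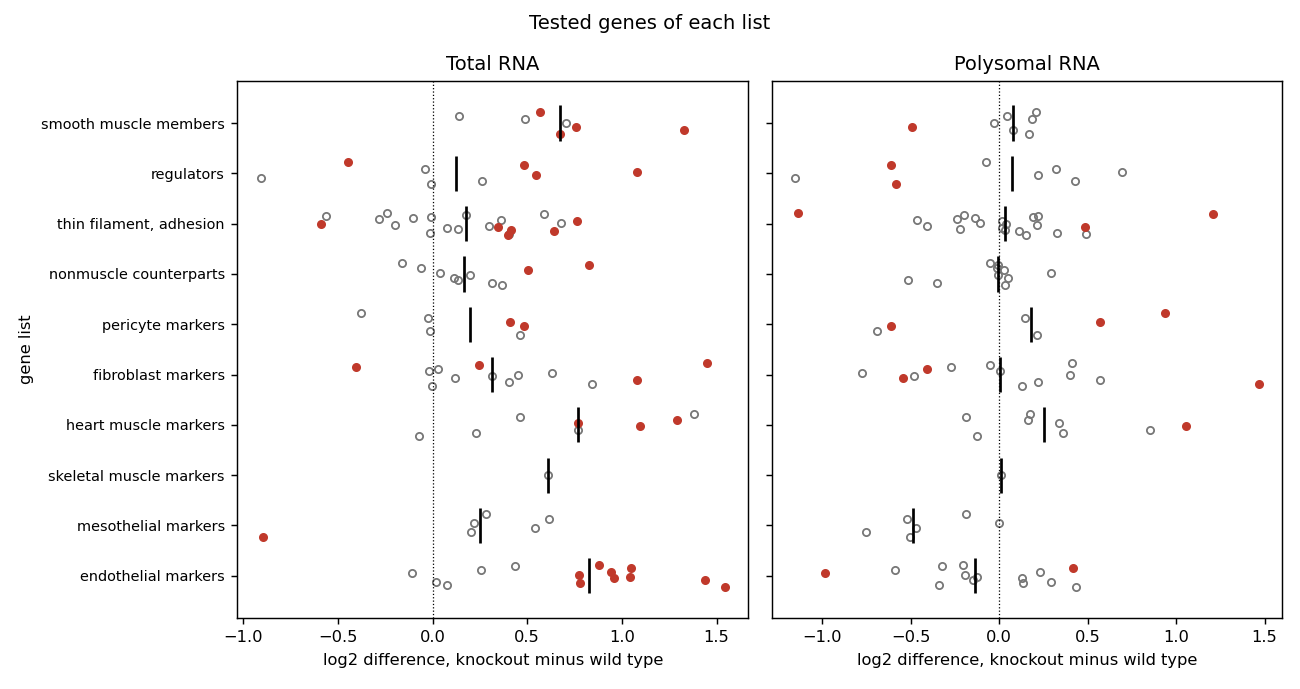
Knockout minus wild type in log2 units (horizontal axis) for each tested gene of the smooth muscle list and of the 9 other lists, in total RNA (left) and polysomal RNA (right). Filled points passed at adjusted p under 0.05, open points did not, and the vertical bar is the median of the list. The smooth muscle genes have a median of 0.67 in total and 0.08 in polysomal RNA, and the endothelial markers 0.83 and -0.14.

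Some markers of other cells were called in total RNA beside the smooth muscle genes, and their part in the results was not tested. For comparison with the counts below, 17.2% of all tested genes were called higher and 5.97% lower in total RNA. In polysomal RNA these shares were 8.36% and 6.77%, and no list was tested against them. Mouse lung holds heart muscle cells in the walls of its veins. Of 15 heart muscle markers 8 were tested, and 3 rose in total RNA with none lower (median 0.77): Myl4 (1.29, SE 0.28), Tnnc1 (1.09, SE 0.24) and the cardiac actin gene Actc1 (0.77, SE 0.19). Their summed level, the log2 of the sum over 15 genes, was 10.999 to 11.697 on the wild-type and 11.68 to 12.2 on the knockout total arrays, with a narrow overlap. It was 12.6 to 13.0 and 12.8 to 13.6 on the polysomal arrays. Ventricular Myl2 stood at 1.87 to 1.97 log2, and 7 of the 15 were below 5 on every array. The summed level of the 9 smooth muscle genes was 12.0 to 12.1 log2 on the wild-type and 12.7 on all 3 knockout total arrays. In polysomal RNA it was 13.5 to 13.6 and 13.6 to 13.9.

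Of 13 skeletal muscle markers with a probe set, 12 were below 5 on every array, and myoglobin, Mb, had a difference of 0.61 (SE 0.38) that did not pass. Of 10 pericyte markers, for the cells around capillaries, 6 were tested, with Rgs5 below 2.1 log2 on every array. In total RNA Higd1b (0.41, SE 0.10) and Notch3 rose and none fell. The summed pericyte level was 10.5 to 11.1 log2 on the wild-type and 11.1 to 11.2 on the knockout total arrays. In polysomal RNA Higd1b (0.57, SE 0.11) and Trpc6 (0.93, SE 0.23) rose and Notch3 fell. Endothelial markers rose in 9 of 14 cases in total RNA (median 0.83), with Egfl7 (1.05, SE 0.09) having the smallest p, and with 1 higher, also Egfl7, and 1 lower, Sox17 (-0.99, SE 0.09), in polysomal RNA. Their summed level was 14.6 to 14.7 log2 on the wild-type and 15.2 to 15.3 on the knockout total arrays. In the interaction 9 of the 14 endothelial markers were lower and none higher, with a median of -0.84, and all 14 were higher in polysomal than in total RNA of wild type, with a median of 2.001. The same medians of the 7 smooth muscle genes were -0.51 and 1.28, and their difference from the endothelial markers was not tested. Of 13 tested fibroblast markers 3 rose, Mfap4 (1.45, SE 0.19), Col3a1 (1.08, SE 0.17) and Inmt (0.25, SE 0.07), and Ces1d fell by 0.41 (SE 0.09). In polysomal RNA 1 rose, Col1a1 (1.47, SE 0.37), and 2 fell, Dcn (-0.55, SE 0.11) and Dpt (-0.41, SE 0.11). In the interaction 3 of the 13 were lower and none higher, with a median of -0.30. The summed fibroblast level was 16.1 to 16.2 log2 on the wild-type and 16.4 on the knockout total arrays. Of 6 tested mesothelial markers Wt1 fell by 0.89 (SE 0.16) in total RNA, none rose, and none passed in polysomal RNA. In the interaction 1 of the 6 mesothelial markers was lower, none of the 8 heart muscle markers passed, and of the 6 pericyte markers 1 was higher and 1 lower. Of all tested genes 14.2% were lower and 8.06% higher in the interaction. In wild type 44.5% of them were higher in polysomal than in total RNA.

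The genes nearest in profile to the smooth muscle genes over the 11 arrays were sought among all other tested genes. Likeness was the root mean square difference between a gene's values, each minus its own mean over the arrays, and the mean profile of the 7 tested genes. The nearest of 8078 other genes were Tubb5 (0.11 log2 units), Bgn (0.12), Itm2c (0.13), Ranbp3 (0.14), Flot2 (0.14) and Cdk4 (0.14). Acta2 was the nearest smooth muscle gene, at 0.14, and Tagln the farthest, at 1.01. Tubb5, a tubulin gene, had a knockout minus wild-type difference of 0.67 in total RNA and -0.02 in polysomal RNA, close to the 0.67 and 0.17 of Acta2. Bgn, the matrix proteoglycan biglycan, had 0.50 and -0.06.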

How the data were processed

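The authors deposited log2 expression values, 1 per probe set and array, made with GCRMA, which adjusts for background, normalizes arrays and merges probes, per the submitters' processing notes, with no version named there. The scale was inferred from the range, 0.73 to 16.7 with array medians of 4.96 to 5.04. Of 26180 probe sets, 15228 matched 1 gene in the RefSeq table of GRCm38.p6. A gene took its probe set of highest mean. Arrays have no read depth, and their number limits the precision.

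The 13802 probe sets that passed the filter were fitted with limma 3.58.1 in R 4.3.3 (lmFit, eBayes), 1 mean per group over 11 arrays, with 7 residual and 2.67 prior degrees of freedom. Tests were two-sided, with Benjamini-Hochberg adjustment over all probe sets tested. Members, lists and alternatives were chosen with earlier results of these data known. Every smooth muscle gene was to be named, up to 4 genes that passed (else 1) per list and contrast by smallest p, and the 6 genes of nearest profile. The 9 other lists were described by counts and medians, without a set test, and 1 further list is not reported here. The fit was tested on simulated data. Figures were drawn with matplotlib 3.10.9.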

Additional observations from a re-analysis of the deposited data

Results flagged for a closer look

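Acta2, Tagln and Des stood out because the interaction term of limma found their knockout differences unequal in polysomal and total RNA. The polysomal difference was below the total one by -0.51 log2 units for Acta2, -1.25 for Tagln and -1.25 for Des. For Acta2 the difference was 0.67 in total and 0.17 in polysomal RNA, for Tagln 1.33 and 0.08, and for Des 0.76 and -0.49. Of these, Des had opposite directions in the 2 RNA kinds and passed in each.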

How the results depend on the processing

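The counts of smooth muscle genes called held best in total RNA, with 4 higher under each scaling, moderation, filter, block and probe set choice tried, except 5 without a filter, and 3 at a threshold of 0.01. Leaving out each array gave 3 to 5 called in total RNA, 0 to 1 in polysomal RNA, 1 to 3 for the interaction, 5 to 7 for polysomal against total RNA in wild type and 3 to 5 in knockout. With the set letter of each RNA kind as a replicate block, 0 were called in polysomal RNA (Des, adjusted p = 0.078), 1 for the interaction (Des) and 3 for polysomal against total RNA in knockout, where Myh11 and Mylk were lost, as was Myh11 in wild type. The threshold of 0.01 gave the same 3 counts, 0, 1 and 3. That block leaves fewer residual degrees of freedom. It reads polysomal against total RNA at set A, whose only polysomal array was knockout polysomal replicate 1, where Myh11 was 7.09 log2. Set A held no wild-type polysomal array, so the estimates and losses in these comparisons depend on the set chosen. The genotype difference in polysomal RNA under the block uses sets B and C only. Deviations from group means of arrays with the same letter correlated at -0.05 to 0.04 in total RNA (4 pairs) and at -0.17 to 0.32 between RNA kinds (9 pairs), so the letters were not taken as pairs there. The 2 same-letter pairs in polysomal RNA, where the block ended the Des call, correlated at 0.10 and 0.12, and different letters at -0.12 to 0. The deviations of the 2 wild-type polysomal arrays from their mean mirror each other. The different-letter values are therefore partly the same-letter values with the sign turned, and the contrast does not show pairing. With the letter as a random block no count changed. Without a filter 2 genes were called in polysomal RNA, Des lower and Actg2 higher (0.66, adjusted p = 0.045), and Actg2 passed in total RNA (0.75, adjusted p = 0.012). Of its 11 values, 4 were identical. Quantile normalization ended the Mylk call for polysomal against total RNA in knockout. The interaction call for Acta2 was lost under quantile normalization and equal array medians, and that for Tagln without a filter. Directions turned for differences near 0 that did not pass: Tpm2 in polysomal RNA was -0.0025 and Lmod1 -0.0096 with equal array medians, and under the block Myh11 in polysomal RNA was 0.36 and the interaction of Tpm2 0.014. Leaving out each array gave -0.32 to 0.36 for Myh11, -0.074 to 0.21 for Tagln and -0.038 to 0.12 for Tpm2 in polysomal RNA, and -0.22 to 0.033 for the interaction of Actg2. Over all genes, 74.3% of calls in total RNA were higher, against 60.6% with quantile normalization and 55.2% when array medians were equalled, and in polysomal RNA 55.3% became 45.1% with equal medians. Quantile normalization moved the median of polysomal minus total RNA over all genes in wild type from 0.22 to 0.06 log2. The interaction was not fitted with only the groups compared, since it needs all 4. The cause of these changes was not tested.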

Other observations

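The nonmuscle relatives of these genes were measured on the same arrays. Of 10 tested, 7 were higher in polysomal than in total RNA of wild type. Of all tested genes 44.5% were called higher and 27.9% lower in that comparison. Tagln2, the transgelin of nonmuscle cells, had 3.14 log2 units (SE 0.12) beside 3.77 for Tagln. The cytoplasmic actin gene Actb had 2.20 (SE 0.14) beside 1.28 for Acta2, the nonmuscle myosin gene Myh10 had 2.82 (SE 0.19) beside 1.76 for Myh11, and Cnn2 had 1.34 (SE 0.10) beside 0.48 for Cnn1. Other relatives lay below the same muscle genes, with Myh9 at 1.62 (SE 0.22) and Cnn3 at 0.41 (SE 0.10). Tpm4 had -0.14 (SE 0.10) beside 0.25 for Tpm2. Between genotypes, 2 of the 10 rose in total RNA, Tagln2 (0.83, SE 0.11) and Cnn2 (0.51, SE 0.09), and none passed in polysomal RNA. The same 2 were lower in the interaction, Tagln2 by -0.83 (SE 0.16) and Cnn2 by -0.48 (SE 0.14). Of all tested genes 17.2% were higher in total RNA and 14.2% lower in the interaction. Differences between a muscle gene and its relative were not tested.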
